A study of Mus musculus with 6 samples.

Results

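Thyroid hormone handling was described here through 8 genes of the mouse spinal cord, taken from the 35275 genes of the deposited tables by their Ensembl identifiers. They were the deiodinases Dio2 and Dio3, the transporter Slco1c1, the receptors Thra and Thrb, the responsive genes Klf9 and Hr, and Crym, which encodes a cytosolic protein that binds the hormone. RNA of whole spinal cord was sequenced in bulk from 3 Sox2 cKO and 3 Ctrl adult mice on a C57BL/6 background. Sox2 cKO mice carried mGfap-Cre with Sox2fl/fl, so the Cre was driven by the mouse Gfap promoter and meant to delete Sox2 in astrocytes. The labels give Ctrl mice as mGfap-Cre with Sox2+/+, whereas the series description allows mGfap-Cre or Sox2fl/fl, and the methods name Sox2fl/fl littermates. Whether the Ctrl mice carried the Cre is therefore unsettled, and a part of the Cre itself in any difference was not tested. The age is given as 90 days in the sample labels and as 80 days in the protocol. The labels state that every RNA integrity number was above 6.8, the methods name a higher minimum, and no value per library was used here. Each group held females and a male, and libraries were not matched to a sex.

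Thyroid hormone reaches the central nervous system mostly as the prohormone T4, which membrane transporters carry across the blood-brain barrier and into glia. Dio2 encodes the deiodinase that turns T4 into the active hormone T3, in the brain mainly in astrocytes and tanycytes, and Dio3 encodes the deiodinase that inactivates both. T3 acts in the nucleus through the receptors encoded by Thra and Thrb, which pair with retinoid X receptors and exchange corepressors for coactivators when the hormone binds. Klf9 and Hr are classical T3 target genes of neural tissue.

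The promoters of Dio2 and Slco1c1 are shown because they are the members of the supply step in astrocytes and at the vessel wall whose start sites could be searched for the letters that SOX family proteins recognise, ACAAAG. Sequences are from RefSeq, build GRCm38.p6, for the 250 bases before the start site, with ACAAAG or its opposite-strand form CTTTGT in capitals. The study names CAAAG and its variants as the SOX2 motif. The search here used the longer ACAAAG, so CAAAG without that leading A is neither counted nor in capitals. The first is the Dio2 promoter at chr12:90739039-90739288 on the minus strand, and the second is the Slco1c1 promoter at chr6:141524104-141524353 on the plus strand. Start sites here are those of RefSeq, whereas gene coordinates given below are from GENCODE M21. The GENCODE 5′ end of Dio2, at 90738438, lies downstream of its window and is not covered by it. That of Slco1c1 is at 141524368, also downstream of the RefSeq start site.

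Dio2: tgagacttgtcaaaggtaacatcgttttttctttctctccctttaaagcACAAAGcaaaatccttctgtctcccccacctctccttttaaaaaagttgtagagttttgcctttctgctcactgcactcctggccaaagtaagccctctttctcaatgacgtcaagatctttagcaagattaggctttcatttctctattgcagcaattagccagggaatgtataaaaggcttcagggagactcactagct

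Slco1c1: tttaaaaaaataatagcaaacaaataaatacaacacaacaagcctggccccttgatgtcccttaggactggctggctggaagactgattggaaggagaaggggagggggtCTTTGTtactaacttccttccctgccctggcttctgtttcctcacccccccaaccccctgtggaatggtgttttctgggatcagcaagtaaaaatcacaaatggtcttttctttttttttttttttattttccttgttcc

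The Dio2 window held ACAAAG once, at position −201 counted from the start site, and the Slco1c1 window held it on the opposite strand at position −140. A further match in Slco1c1 lay just past its RefSeq start site, inside an 11-base motif sequence that the study lists. The SOX2-bound sites of the study came from adult cerebral cortex, so binding in this spinal cord was not measured. The motif sequence is given here with its flanks in lower case.

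Slco1c1 site: ctctaTAAACAAAGCTttatc

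That motif sequence starts 4 bases beyond the RefSeq start site, at chromosome 6, 141524358 to 141524368. Its last base is the first base of Slco1c1 in GENCODE M21. Of 32851 RefSeq windows from 250 bases before to 50 bases after a start site, 18.7% held ACAAAG on either strand, so a match is common. The receptor half-site AGGTCA was in 16.3% of windows, and among the members only in the first of both Thrb windows, at position −184. A direct repeat of AGGTCA with any 4 bases between the copies, which includes the half-site, was searched on both strands and was in 0.0152% of windows and in no member's. Windows were at hand for 5 of the 8 members, and those of Dio3, Klf9 and the second start of Thrb held none of the sequences searched. Thra, Hr and Crym had no window.

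Libraries held 21507911 to 28392184 counts. Levels are given as CPM, counts relative to the TMM-scaled size of the library, and differences as log2 of Sox2 cKO over Ctrl. Table columns carry numbers in place of sample names, and were assigned to groups by the numbers of the mice on a protein blot of the study. Libraries are named by these numbers, Ctrl 2, 4 and 6 and Sox2 cKO 1, 3 and 5. Sox2 itself was at 19.9, 14.8 and 29.5 CPM in Ctrl and at 3.16, 2.69 and 2.98 CPM in Sox2 cKO, so the groups were apart, and its log2 difference was −2.86 ± 0.24 (SE, n = 3 per group, edgeR adjusted p = 0.000956). Across the 16137 genes tested, edgeR called 24.6% at an adjusted p below 0.05, of which 2008 were lower and 1962 higher in Sox2 cKO. With the deposited FPKM and limma, 25.5% of calls were lower in place of 50.6%, and the median log2 difference of all genes was 0.11 (0.1 added to each FPKM), against 0.02 by edgeR. Of 12 astrocyte markers 6 fell and 1, S100b, rose, and their summed level was 8935, 9375 and 10839 CPM in Ctrl against 6922, 6911 and 7144 CPM in Sox2 cKO. In bulk tissue, fewer cells of a type and less RNA per cell cannot be told apart.

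By edgeR, no member of the thyroid hormone group changed past the threshold in the spinal cord of Sox2 cKO mice. edgeR tested 7 of the 8, Dio3 being too low, and called 0 of them, against 24.6% of all genes tested. At an unadjusted p below 0.05 there were 2 of 7, Dio2 and Thrb, beside 39.6% of all genes tested. DESeq2, the tool of the study's own calls, called 1 of the members on the same counts, Thrb, beside 28.1% of all genes to which it gave an adjusted p. The difference was negative for 5 members and positive for Slco1c1 and Crym, with a median log2 difference of −0.30 over the 7, against 0.02 over all genes tested. CPM values of the groups did not overlap for 1 of the 7, Thra, whereas 44.7% of all genes tested had groups that did not overlap (22.1% lower and 22.6% higher in Sox2 cKO).

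**Figure D1:**
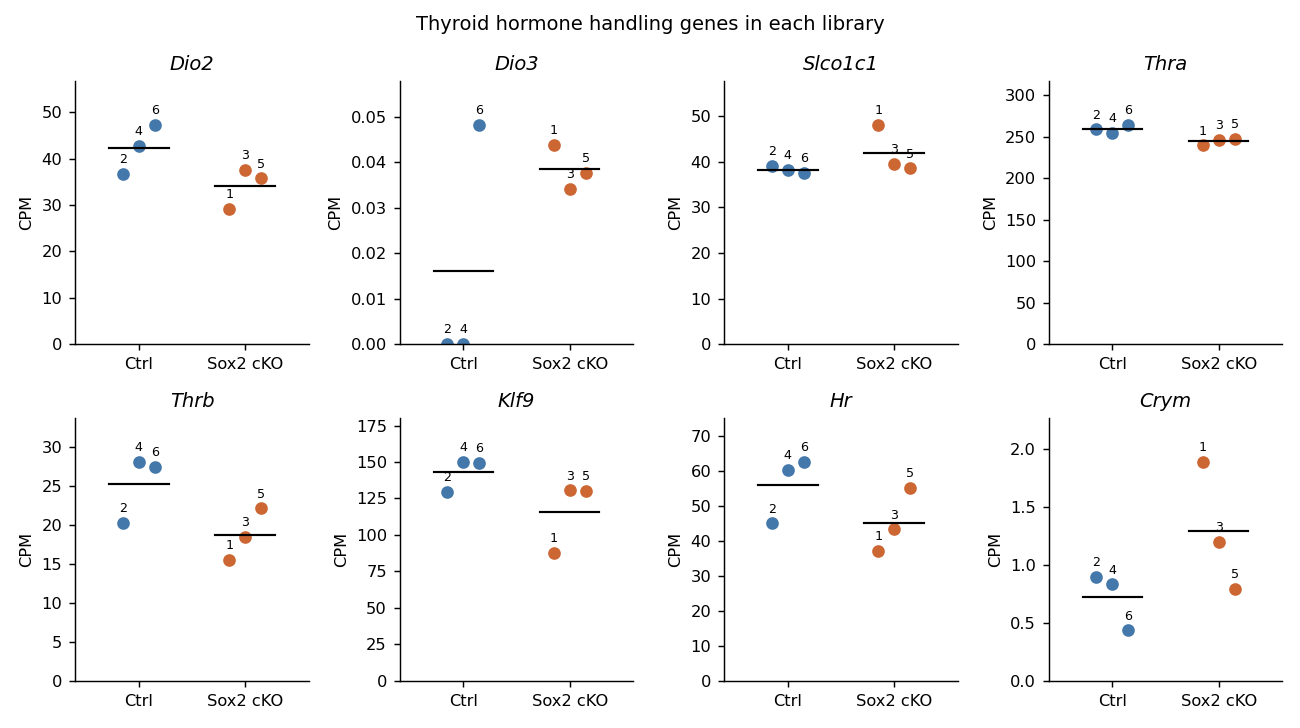
CPM of each member (one panel a gene, linear axis from 0) in the 3 Ctrl and 3 Sox2 cKO libraries, with each point a library marked by its number and a bar at the group mean. Thra is the tested member whose groups are apart, by little beside its level, and Sox2 cKO library 1 lies at an end of its group in the 7 members tested.

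Dio2, the T4-activating deiodinase (ENSMUSG00000007682, mm10 chromosome 12, 90724552 to 90738438, minus strand), was at 36.7, 42.9 and 47.3 CPM in Ctrl and at 29.2, 37.6 and 35.8 CPM in Sox2 cKO. The lowest Ctrl library lay below the highest Sox2 cKO library, so the groups overlapped. The mean was 42.3 ± 5.35 CPM in Ctrl and 34.2 ± 4.44 CPM in Sox2 cKO (SD, n = 3 each), which is 80.8% of Ctrl. The log2 difference was −0.30 ± 0.12 (SE), with an edgeR adjusted p of 0.0902, and its 95% interval ran from −32.9% to −2.36% as a change from Ctrl, before any correction for the number of genes. At its 5′ end Dio2 shares 100 of its 5815 exon bases with Gm26512, a non-coding RNA of the opposite strand that had 24 to 42 counts per library. The methods name a directional library kit, but the use of strand in counting is not given in the sources used here. How reads in the 100 shared bases were counted is therefore not known, and the Gm26512 counts do not bound their number. Dio2 itself had 664 to 1102 counts per library.

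Set against the astrocyte markers, Dio2 was at 4.10, 4.57 and 4.36 CPM per 1000 CPM of marker RNA in Ctrl and at 4.21, 5.44 and 5.01 in Sox2 cKO. These ratios overlapped between groups (exact permutation test, two-sided p = 0.3, smallest possible 0.1). The ratio had a log2 difference of 0.16, whereas Dio2 itself had one of −0.30. In the marker sum, mean CPM went from 2841 in Ctrl to 1312 in Sox2 cKO for Gfap, and from 2541 to 1658 for Slc1a2. The paper reports both as SOX2-bound genes that fall in Sox2 cKO. Of the 12 markers 9 had a negative and 3 a positive difference, so the ratio is not a level per astrocyte. The part of the astrocyte marker decrease in the Dio2 values was not tested. Dio1, the deiodinase best known from liver and thyroid, was not tested because of its low counts, and no library of either group exceeded 0.0965 CPM.

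Dio3, the inactivating deiodinase (ENSMUSG00000075707, chromosome 12, 110279068 to 110281097, plus strand), was nearly silent. It had 0, 0 and 1 counts in Ctrl libraries and 1 count in each Sox2 cKO library. Every library was under the 3 counts that a count of 0 allows, so no fold is given and a difference was not detectable at this depth. Of the deiodinase genes, only Dio2 had more than 1 count in every library.

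Slco1c1 encodes the T4 transporter OATP1C1 of brain endothelium and astrocytes (ENSMUSG00000030235, chromosome 6, 141524368 to 141570177, plus strand). Its levels were 39.0, 38.3 and 37.6 CPM in Ctrl and 48.1, 39.5 and 38.5 CPM in Sox2 cKO. Ctrl libraries lay close together, and Sox2 cKO library 1 stood above the other two, which were within 2 CPM of the Ctrl mean. Mean levels were 38.3 ± 0.74 and 42.0 ± 5.27 CPM, and the log2 difference was 0.13 ± 0.10 (edgeR adjusted p = 0.340), with a 95% interval from −5.83% to 27.7% as a change from Ctrl. Without Sox2 cKO library 1 it was 0.03 (edgeR adjusted p = 0.850). In that library 6 of the 10 endothelial markers lay above the Ctrl range, 3 inside it and 1 below, and their sum was 514 CPM against 412, 454 and 476 CPM in Ctrl. The tight junction gene Cldn5 stood farthest out, at 43.6 CPM against 15.5 to 17.3 CPM in Ctrl, and the part of these markers in the Slco1c1 value was not tested.

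Slco1c1 was also set against the marker RNA of endothelium and of astrocytes. It was at 94.6, 84.3 and 79.0 CPM per 1000 CPM of endothelial markers in Ctrl and at 93.6, 99.5 and 86.9 in Sox2 cKO, which overlapped (exact permutation test, two-sided p = 0.3). Per 1000 CPM of astrocyte markers it was at 4.37, 4.08 and 3.47 in Ctrl and at 6.95, 5.71 and 5.39 in Sox2 cKO. There the groups did not overlap, and the exact two-sided permutation p of 0.1 is the smallest that 3 against 3 allows. The denominator of this ratio, the astrocyte marker sum, was itself lower in every Sox2 cKO library. As for Dio2, the ratio is not a level per astrocyte, and its separation does not show a change of Slco1c1. Of 10 endothelial markers 1, Itm2a, rose and none fell, and their sums were 412 to 476 CPM in Ctrl and 397 to 514 CPM in Sox2 cKO. No marker of either list was at 0 in any library. The ratio of Dio2 to Slco1c1 in FPKM, the activating enzyme over the transporter, was 0.513, 0.612 and 0.689 in Ctrl and 0.332, 0.521 and 0.508 in Sox2 cKO, and the groups overlapped (exact permutation test, two-sided p = 0.2).

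Thra encodes the more abundant receptor of neural tissue (ENSMUSG00000058756, chromosome 11, 98740638 to 98769006, plus strand). It was at 259, 255 and 264 CPM in Ctrl and at 239, 246 and 248 CPM in Sox2 cKO. The highest Sox2 cKO value lay just under the lowest Ctrl value, so the groups did not overlap. The means were 259 ± 4.72 and 244 ± 4.30 CPM, and the log2 difference of −0.09 ± 0.07 did not pass (edgeR adjusted p = 0.418, 95% interval from −15.9% to 5.66% as a change from Ctrl). This SE and interval borrow spread from other genes and are not set by the Thra values alone. On the deposited FPKM scale the groups overlapped, at 105, 99.9 and 102 in Ctrl and 103, 103 and 102 in Sox2 cKO, and the limma difference was 0.01. Thra is spliced into the T3 receptor and into a variant that does not bind T3, which gene counts add together. Its 3′ end shares 263 of 4614 exon bases with the clock gene Nr1d1 on the opposite strand, which had a log2 difference of −0.20 (edgeR adjusted p = 0.276) and 802 to 1340 counts per library.

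Thrb, the second receptor gene (ENSMUSG00000021779, chromosome 14, 17660261 to 18038090, plus strand), had the most negative difference of the members. It was at 20.3, 28.1 and 27.5 CPM in Ctrl and at 15.5, 18.5 and 22.1 CPM in Sox2 cKO. Ctrl library 2 lay below Sox2 cKO library 5, and the other values were in separate ranges. The means were 25.3 ± 4.36 and 18.7 ± 3.30 CPM, and the log2 difference was −0.43 ± 0.15 (edgeR adjusted p = 0.0639). Its 95% interval ran from −41.6% to −6.03% as a change from Ctrl before correction. DESeq2 gave −0.45 with an adjusted p of 0.0333, and edgeR without a filter on low counts gave −0.43 with an adjusted p of 0.0339, a setting that called 17.2% of all genes. The call on Thrb thus depended on the tool and on the set of genes tested.

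Per length, Thra was well above Thrb in every library. The ratio of Thra to Thrb in FPKM was 31.6, 22.4 and 23.9 in Ctrl and 38.2, 33.0 and 27.7 in Sox2 cKO. Ctrl library 2 lay inside the Sox2 cKO range, and the groups were not separated (exact permutation test, two-sided p = 0.2). The size of this ratio depends on the gene lengths used. With exon lengths of GENCODE M21, mean Ctrl FPKM was 54.2 for Thra and 3.29 for Thrb.

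Among the T3 targets, Klf9, a zinc finger repressor (ENSMUSG00000033863, chromosome 19, 23141226 to 23168134, plus strand), was at 130, 150 and 149 CPM in Ctrl and at 87.5, 131 and 130 CPM in Sox2 cKO. The low mean of Sox2 cKO came mostly from library 1, since the other two matched the lowest Ctrl library. Means were 143 ± 11.6 and 116 ± 24.7 CPM (log2 difference −0.30 ± 0.14, edgeR adjusted p = 0.144), and without Sox2 cKO library 1 the log2 difference was −0.13 (edgeR adjusted p = 0.369). Hr encodes a nuclear corepressor that interacts with the T3 receptors (ENSMUSG00000022096, chromosome 14, 70552212 to 70573548, plus strand). Its values of 45.0, 60.2 and 62.7 CPM in Ctrl and 37.1, 43.3 and 55.1 CPM in Sox2 cKO overlapped, since Ctrl library 2 lay below Sox2 cKO library 5. The means of Hr were 56.0 ± 9.57 and 45.2 ± 9.15 CPM, with a log2 difference of −0.31 ± 0.16 (edgeR adjusted p = 0.170).

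Crym, the cytosolic hormone-binding protein (ENSMUSG00000030905, chromosome 7, 120186380 to 120202111, minus strand), was rare. It had 20, 20 and 9 counts in Ctrl and 43, 35 and 21 counts in Sox2 cKO, or 0.897, 0.831 and 0.434 CPM against 1.89, 1.19 and 0.793 CPM. The lowest Sox2 cKO library lay inside the Ctrl range. The log2 difference of 0.81 ± 0.40 was the largest in size of the members and had the widest interval (edgeR adjusted p = 0.157, 95% interval from −4.84% to 224% as a change from Ctrl). Without Sox2 cKO library 1 the log2 difference of Crym was 0.46 (edgeR adjusted p = 0.484), and without Ctrl library 6 it was 0.57 (adjusted p = 0.382). Ctrl library 6, the lowest for Crym, was also the lowest of the 6 libraries for 6 of 6 meningeal fibroblast markers, whose sum was 202 CPM there, 546 and 507 CPM in the other Ctrl libraries and 432 to 572 CPM in Sox2 cKO. Their part in the Crym values was not tested.

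The members spanned several orders of level in the same tissue. In mean FPKM per gene length, Ctrl ran from Thra (102) over Klf9 (42.3), Slco1c1 (11.6), Hr (9.61), Dio2 (7.01), Thrb (4.01) and Crym (0.261) to Dio3 (0.00747). Sox2 cKO had the same order, at 103, 36.7, 13.7, 8.31, 6.07, 3.17, 0.502 and 0.0197 FPKM. Within each group the ranges of neighbours did not overlap. The lengths behind FPKM differ from the exon lengths of the GENCODE M21 annotation, and with the latter Hr, Slco1c1 and Dio2 had overlapping ranges in Ctrl, 6.46 to 8.53 for Hr, 6.82 to 7.47 for Slco1c1 and 6.26 to 7.67 FPKM for Dio2, so the order of these 3 is not settled. The places of Thra, Klf9, Thrb, Crym and Dio3 were the same with either length.

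**Figure D2:**
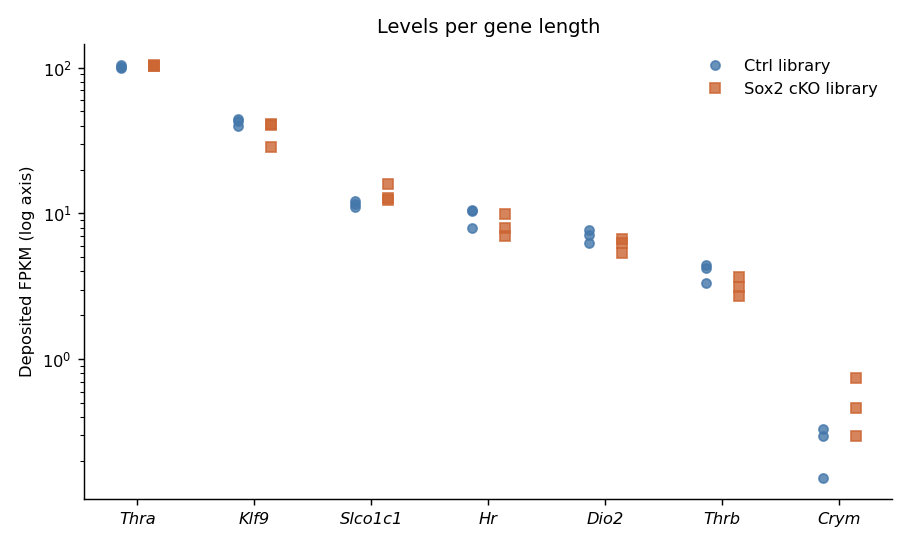
Deposited FPKM on a log axis of the 7 members that passed the filter, with a circle for each Ctrl library and a square for each Sox2 cKO library. Thra lies at the top, near 102 FPKM, and Crym at the bottom, below 1 FPKM, and the groups lie side by side at each gene.

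Sox2 cKO library 1 was the lowest or the highest of its group for 7 of 7 tested members, lowest for 5 and highest for Slco1c1 and Crym, and it was at an end of its group for 77.6% of all genes tested. It was farthest from its group's median in 5 of the 7, beside 47.1% of all genes tested. Ctrl library 2 was farthest in 4 of the 7, beside 48.1% of all genes. With Ctrl library 2 left out, edgeR called Dio2 (log2 difference −0.40, adjusted p = 0.0209), Thrb (−0.57, adjusted p = 0.00953) and Hr (−0.44, adjusted p = 0.0330), all lower, or 3 of the 7 members beside 36.9% of all genes in that fit. With Sox2 cKO library 5 left out, it called Thrb (−0.57, adjusted p = 0.0423), beside 16.3% of all genes. The other 4 fits that left out a library called none of the members. edgeR called 26 of 16373 genes without Ctrl library 4 and 1082 of 16552 without Ctrl library 6. It called 8 of 16482 genes without Sox2 cKO library 1 and 1359 of 16345 without Sox2 cKO library 3. Estimates of the 7 members kept their sign in all 6 of these fits, and without Sox2 cKO library 1 those of Dio2 and Hr were −0.20 and −0.18. DESeq2 called Dio2, Thrb, Klf9 and Hr without Ctrl library 2, beside 35.5% of all genes with an adjusted p, and Thrb and Hr without Sox2 cKO library 5, beside 22.8%.

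**Figure D3:**
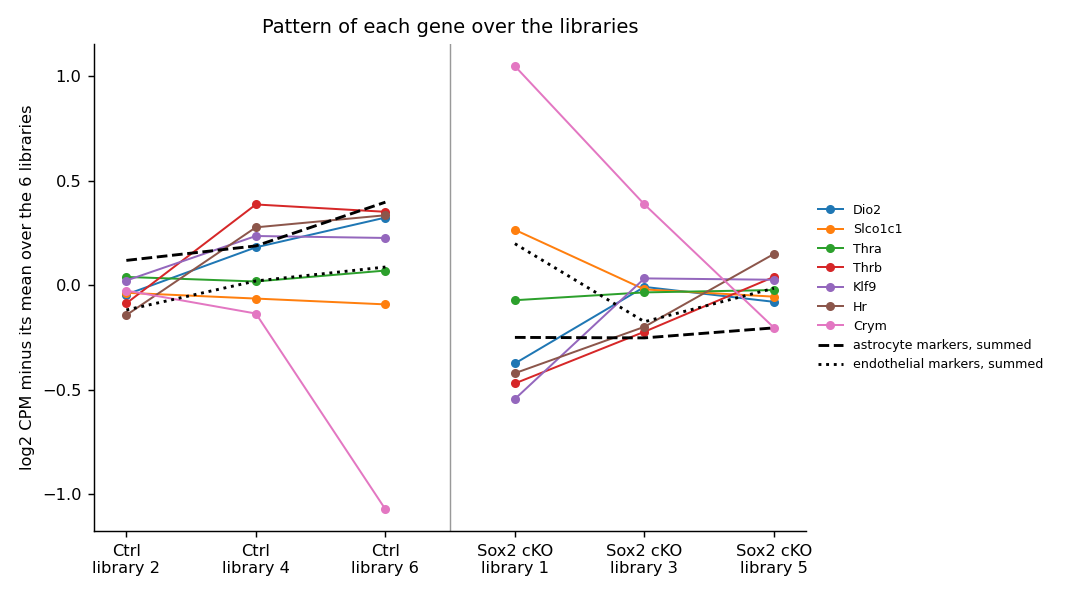
Log2 CPM of each tested member by library, centred on its mean over the 6 libraries, with black lines for summed marker lists and lines joined within a group for ease of reading. Dio2, Thrb, Klf9 and Hr are low in Sox2 cKO library 1, where Slco1c1 and Crym are high, and Dio2, Thrb, Klf9 and Hr are also lower in Ctrl library 2 than in the other Ctrl libraries.

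By edgeR, a list of 32 further genes of the pathway held calls that the members did not. Of 31 tested, 7 fell and 3 rose in Sox2 cKO (24.6% of all genes tested were called, 12.4% lower and 12.2% higher), with a median log2 difference of −0.09. Among 6 transporters and carriers, 1 fell. It was Slc7a5, the light chain of an amino acid carrier that also takes thyroid hormone, at 63.9, 77.7 and 75.7 CPM in Ctrl and at 59.6, 55.5 and 62.2 CPM in Sox2 cKO, which did not overlap (log2 difference −0.29 ± 0.09, edgeR adjusted p = 0.0429). Its heavy chain Slc3a2, the most abundant transporter of the list, was at 119 ± 4.78 and 116 ± 3.95 CPM (edgeR adjusted p = 0.825).

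Of 5 tested genes of the selenocysteine machinery that deiodinases need, 1 rose and none fell, beside 24.6% called of all genes tested. Pstk, the kinase that prepares selenocysteine on its tRNA, was at 15.2, 11.0 and 10.4 CPM in Ctrl and at 21.6, 20.3 and 19.5 CPM in Sox2 cKO (log2 difference 0.74 ± 0.14, edgeR adjusted p = 0.0128). Sephs2, which makes the selenium donor and was the most abundant of this role, was at 23.9 ± 2.54 and 21.4 ± 2.13 CPM (edgeR adjusted p = 0.301).

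Receptor partners held the most calls, with 4 lower and 1 higher of 10, where 12.4% of all genes tested were called lower and 12.2% higher. The coactivators Ncoa1 (−0.44, edgeR adjusted p = 0.0254) and Ncoa3 (−0.41, adjusted p = 0.0203) and the Mediator subunit Med1 (−0.71, adjusted p = 0.0127) fell, as did the corepressor Ncor1 (−0.44, adjusted p = 0.0176). Ncor1, the most abundant of this role, was at 155, 178 and 175 CPM in Ctrl and at 109, 137 and 130 CPM in Sox2 cKO. Hdac3, the deacetylase of the corepressor complex, rose from 54.3 ± 4.84 to 76.6 ± 6.66 CPM (0.50, edgeR adjusted p = 0.0127). Coactivators and a corepressor were thus both among the genes that fell. With the length correction described below, edgeR no longer called Ncoa1, Ncoa3 or Ncor1 (adjusted p = 0.161, 0.271 and 0.321). The receptors' dimer partners Rxra, Rxrb and Rxrg were not called. Of 10 T3-responsive genes 2 fell and 1 rose, beside 24.6% called of all genes tested. Those that fell were Gpd2, a mitochondrial glycerol phosphate dehydrogenase (−0.65, edgeR adjusted p = 0.0102), and Camk4, a calcium-dependent kinase (−0.41, adjusted p = 0.0351). Shh, a secreted morphogen, rose (0.65, edgeR adjusted p = 0.0237) at a low level of 3.76 ± 0.63 and 5.92 ± 0.44 CPM. Mbp, the myelin basic protein and the most abundant gene of the list, was at 14507, 12171 and 12680 CPM in Ctrl and at 15330, 14420 and 15018 CPM in Sox2 cKO, which overlapped (edgeR adjusted p = 0.181).

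**Figure D4:**
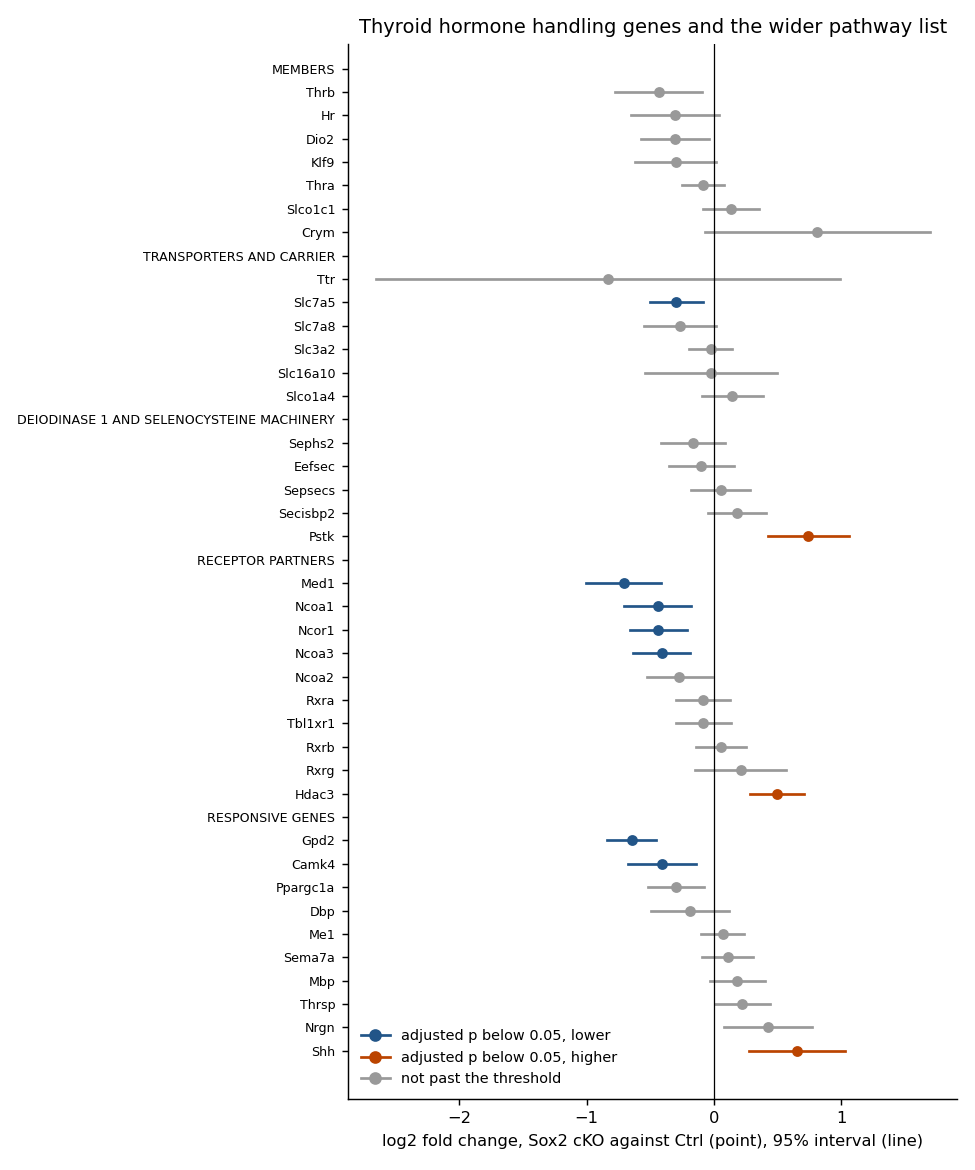
Log2 difference of Sox2 cKO over Ctrl (horizontal axis) for the 7 tested members and the 31 tested pathway genes by role, with points for the edgeR estimate and lines for its 95% interval before correction for the number of genes. All members are grey, not past the threshold, whereas 7 pathway genes are blue (lower) and 3 orange (higher).

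Gene length moved with these calls. The 7 pathway genes that fell had a median length of 7531 bases and the 3 that rose one of 2692 bases. Over all genes, those called lower had a median of 5367 bases, those called higher 1703 and all tested 3060. The part of RNA integrity in this trend was not tested. When differences were corrected for a trend with gene length, the calls on Ncoa1, Ncoa3, Ncor1, Camk4 and Slc7a5 were lost, with log2 differences of −0.16, −0.12, −0.10, 0.00 and −0.28. Med1 (−0.39, edgeR adjusted p = 0.0331) and Gpd2 (−0.45, adjusted p = 0.0135) were still called lower, and Sephs2 was added. Pstk, Hdac3 and Shh were still called higher. With the same correction the members moved to −0.11 for Dio2, −0.21 for Thrb, −0.12 for Hr, −0.31 for Klf9 and −0.19 for Thra, and none was called, beside 13.1% of all genes tested. In the edgeR fits without Ctrl library 4 or without Sox2 cKO library 1, no pathway gene was called, and only 26 and 8 genes of all tested were.

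**Figure D5:**
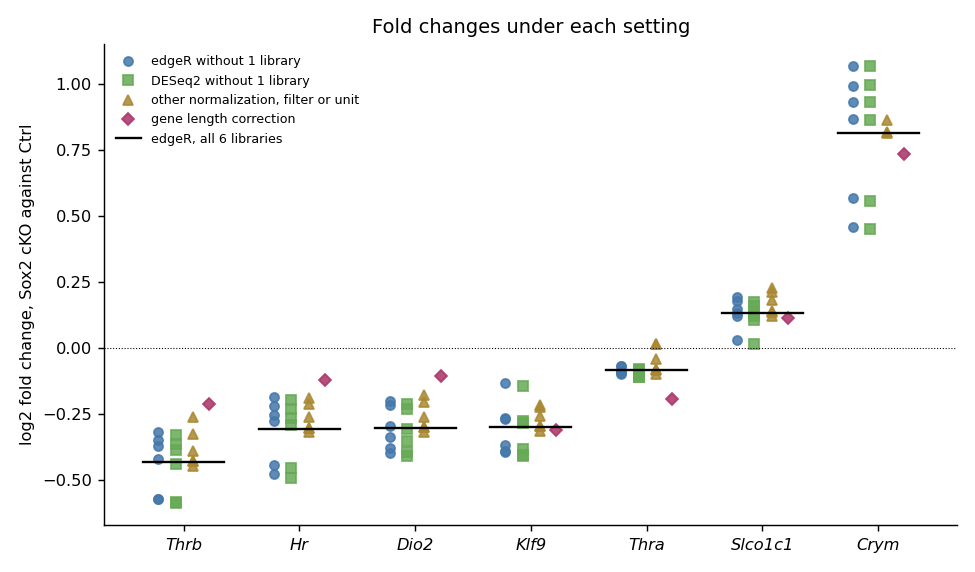
Log2 difference of Sox2 cKO over Ctrl for each tested member, with a black line for edgeR on the 6 libraries and symbols for fits without 1 library (circles, edgeR, and squares, DESeq2), other scalings, filters or units (triangles) and the length correction (diamonds). Thra crosses 0 on the FPKM scale, the other members keep their sign, and Dio2, Thrb and Hr lie nearer to 0 with the length correction.

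Likeness was measured as the root mean square difference of log2 CPM, centred over the 6 libraries, among 11730 genes with a mean of at least 5 CPM. Nearest to Dio2 were Zfp148 (0.0191), Shisal1 (0.0259) and 2210408I21Rik (0.0300), and nearest to Thrb were St8sia1 (0.0373), Erbb4 (0.0428) and Pgm2l1 (0.0438). Klf9 was closest to Sox5 (0.0224), Nufip2 (0.0272) and Cnksr2 (0.0441), and Hr to 5830417I10Rik (0.0421), Six4 (0.0450) and Ntn4 (0.0535). Slco1c1 had Tex264 (0.0169), Ankrd13b (0.0257) and Psmd3 (0.0289), and Thra had Zfp874b (0.0175), Atg13 (0.0176) and Stau1 (0.0177). Crym lay farther from any gene, with Igfbp7 (0.152), Ctsh (0.163) and Oasl2 (0.173) as the nearest. Crym also deviated most from its own mean, by 0.584 as a root mean square, against 0.0477 for Thra. Distances were not scaled by this spread. With 6 libraries such closeness is a description of these values only.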

How the data were processed

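Poly(A) RNA of spinal cord was sequenced as single-end reads. The authors aligned the reads to mm10 with STAR 2.5 and counted reads per gene with HTSeq 0.6.1, and deposited raw counts and FPKM, made with a gene length and the library total. Tool versions are from the submitters' processing notes. The study made its own calls with DESeq2 at an adjusted p below 0.05. The methods name a directional library kit, but the annotation and the use of strand in counting are not given in the sources used here. Counts were tested with edgeR 4.0.16 in R 4.3.3 (filterByExpr, TMM, quasi-likelihood test, Benjamini-Hochberg over the 16137 genes kept, threshold 0.05) between 3 Sox2 cKO and 3 Ctrl libraries, which were assigned from column numbers by mouse numbers printed in the study. DESeq2 1.42.0, limma 3.58.1 on log2(FPKM + 1) and log2(FPKM + 0.1) for genes of a mean FPKM of at least 0.5, upper quartile scaling, no filter, a minimum of 10 counts, a length correction (lowess span 0.3) and leaving out each library were alternatives. Ratios were compared by an exact permutation test on log2 values. Symbols and exon lengths came from GENCODE M21, which matched 34490 of 35275 identifiers. The FPKM and counts gave a whole-number length, within 0.01, for 24442 genes. Depth was 21507911 to 28392184 counts per library. The edgeR intervals cover counting error and a spread between libraries that is estimated in part from all genes. Each library is given as a separate mouse.

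The members and lists were chosen with earlier results of these data known. Some genes of the pathway are not reported here. Named were all members, each called gene and the most abundant gene of each role in the pathway list, and the 3 nearest genes by pattern. Besides the astrocyte and endothelial lists, edgeR called 0 of 10 oligodendrocyte, 1 of 10 neuron, 0 of 6 meningeal fibroblast and 2 of 8 microglia markers, with median log2 differences of −0.08, 0.02, 0.37 and −0.04.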

Additional observations from a re-analysis of the deposited data

How the results depend on the processing

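Limits were the 3 libraries per group, the assignment of columns by printed mouse numbers, and the spread of Ctrl library 2 and Sox2 cKO library 1. No paired analysis was possible because the columns carry no replicate number shared between groups. Under DESeq2 1 member was called lower (Thrb, −0.45), as without a filter on low counts (1, Thrb, −0.43). Thra turned from −0.09 to 0.013 with either limma fit on FPKM. limma called 915 and 896 genes lower with 1 and 0.1 added, and 3 pathway genes lower with each. The length correction called 2109 genes, 1128 lower and 981 higher, and 3 pathway genes lower. Its marker calls were 3 astrocyte lower and 0 higher, 2 oligodendrocyte lower, and 1 microglia lower and 1 higher. Marker calls also moved under DESeq2 (3 oligodendrocyte lower, 1 neuron lower, 2 neuron higher, 2 microglia lower), under upper quartile scaling (2 neuron higher), without a filter (2 neuron higher, 2 endothelial higher, 1 meningeal fibroblast higher, 2 microglia lower) and under limma (2 neuron higher and 0 microglia higher in both fits). With exon lengths of GENCODE M21, chosen after seeing the data, mean Ctrl FPKM was 54.2 for Thra, 28.7 for Klf9, 7.79 for Hr, 7.13 for Slco1c1 and 3.29 for Thrb. Leaving out single libraries, by edgeR and, chosen after seeing the data, by DESeq2, gave 8 to 6119 called genes (5 to 3089 lower, 3 to 3030 higher), 0 to 4 members lower, and 0 to 10 pathway genes lower and 0 to 6 higher. The log2 difference ranged from −0.41 to −0.20 for Dio2, −0.59 to −0.32 for Thrb, −0.49 to −0.18 for Hr, −0.41 to −0.13 for Klf9 and 0.45 to 1.07 for Crym. Marker calls ranged from 0 to 7 astrocyte lower, 0 to 3 oligodendrocyte lower and microglia higher, 0 to 2 for endothelial either way, neuron higher, meningeal fibroblast lower and microglia lower, and 0 to 1 for astrocyte, oligodendrocyte and meningeal fibroblast higher and neuron lower. The cause of these moves was not tested.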
